A study of Mus musculus with 5 samples.

Results

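The insulin-like growth factor (IGF) axis was described here by 10 genes: the growth hormone receptor Ghr, the ligand Igf1, its receptor Igf1r, and the binding proteins Igfbp1 to Igfbp7. They were chosen by name, with earlier results of these data known. Each gene was represented by the probe set with the highest mean signal among those annotated to it alone. All 10 had a probe set, of 12393 genes named on the array, and 23 probe sets reported on them. The samples were 2 RNA pools, each made from several C57BL/6 mice, and 3 mixtures of them. A pool of entire pups, taken on day 1 after birth, was the whole mouse RNA. A pool of colons from adults aged 8 weeks was the colon RNA. The share of colon RNA was 0%, 25%, 50%, 75% or 100%, with 1 array for each share and no replicate, in a comparison of array platforms. Tissue and age cannot be told apart between the pools, nor can fewer cells of a type and less RNA per cell in such bulk RNA.

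Growth hormone from the pituitary acts on its receptor in the liver and other tissues and raises the output of IGF1, which drives growth through a receptor tyrosine kinase on most cells. In blood and tissue fluid IGFs are held by a family of binding proteins, which prolong their life, keep them from the receptor or deliver them to it. The liver is a main source of circulating IGF1 and of IGFBP1, while fibroblasts, muscle, bone and vessel cells make other members locally. In the intestine IGF1 is known as a growth factor of the crypts and of the muscle layer.

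The deposited values were log2 signals, and array medians lay between 6.83 and 6.92. Values on the 5 arrays are given below in order of rising colon share. A gene "rose" or "fell" when the slope of its log2 signal on the colon share passed limma's test at a Benjamini-Hochberg adjusted p of 0.05 over 22626 probe sets. Slopes are in log2 units, with negative values lower in colon. The error of a slope covers the spread of 5 arrays around a line and any bend of the signals, not the spread between mice. Summed marker signals followed the labels. That of 6 colonocyte genes went from 11.77 in whole mouse to 14.93 in colon (log2), and that of 4 hepatocyte genes from 15.36 to 10.31. By the test 2 of the 6 colonocyte genes rose, beside 9.80% of all genes, and 4 did not pass. Of the 4 hepatocyte genes 1 fell, beside 14.5% of all genes.

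The axis was lower in colon than in the whole newborn for most of its binding proteins. Of the 10 genes 6 fell and none rose, where 14.5% of all genes fell and 9.80% rose. The 6 were Ghr, Igf1, Igfbp2, Igfbp3, Igfbp4 and Igfbp5. The median slope over the 10 genes was −1.07 log2, and that of all genes was −0.01. Between the undiluted arrays 5 genes were at least 2-fold lower in colon, a size reached by 10.4% of all genes, and none was at least 2-fold higher (9.26% of all genes). Signals stood in strict falling order over all 5 arrays for Igfbp1, Igfbp2, Igfbp4 and Igfbp5, as they did for 12.1% of all genes, and in strict rising order for none of the 10 (8.66% of all genes). By their brightest probe sets the genes split into a steep group (Igfbp1, Igfbp2, Igfbp3, Igfbp5), a shallow group (Igf1, Igfbp4, Ghr) and 3 with small slopes (Igf1r, Igfbp6, Igfbp7). This ordering was made after the values were seen. With probe sets averaged, Igfbp5 had a slope of −1.03, near that of Igfbp4 (−1.07). The brightest probe set of Igf1r held 5.56 on all 5 arrays.

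**Figure D1:**
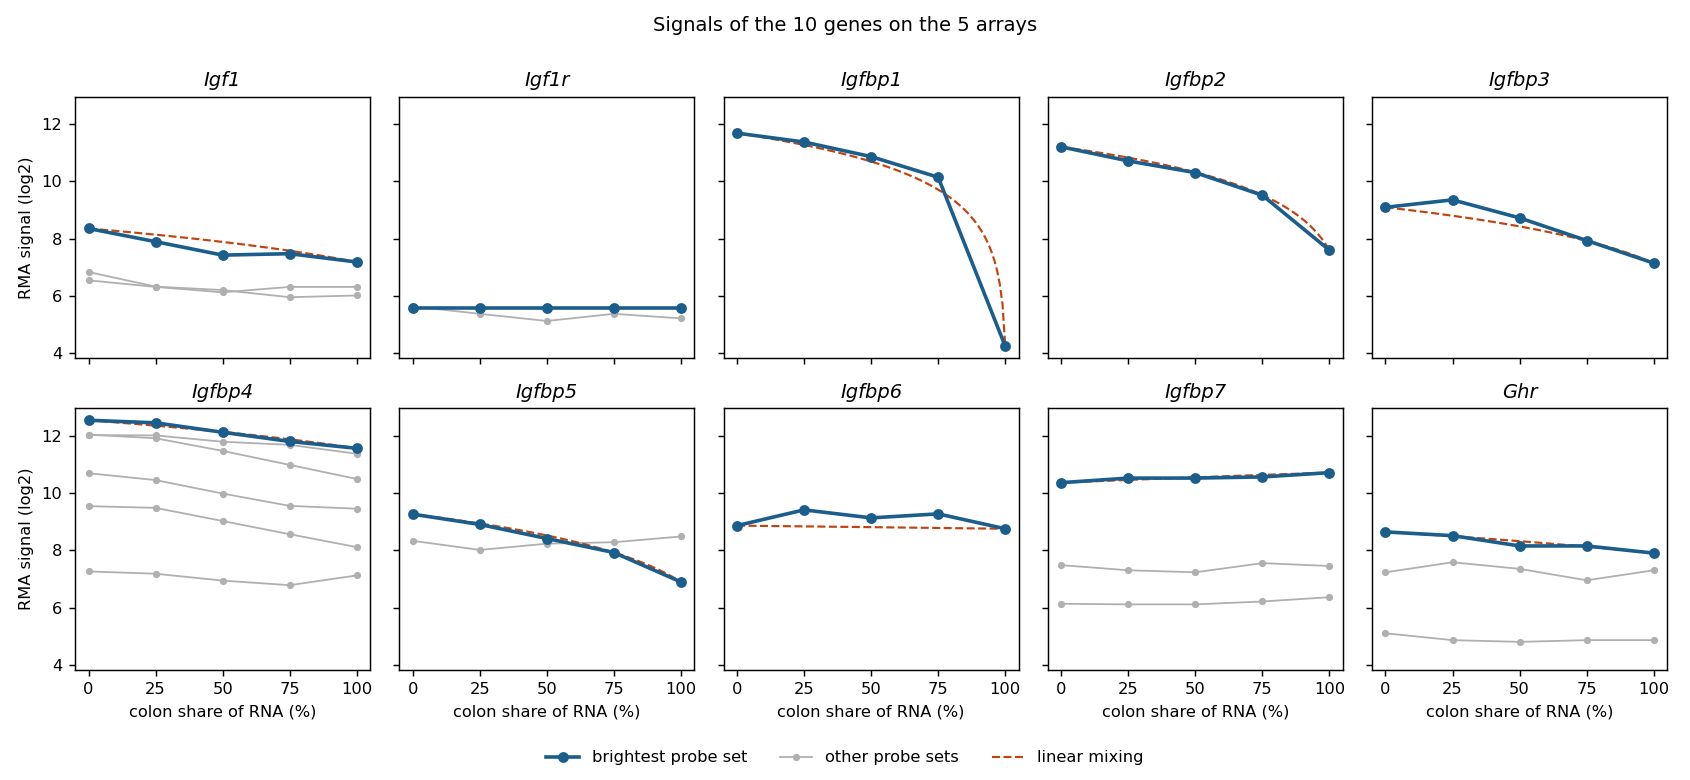
Signal (log2) of each gene against the colon share of RNA (%) on the 5 arrays, 1 panel per gene. Blue points and lines are the brightest probe set, grey the gene's other probe sets, and the dashed line is the weighted mean of the undiluted intensities. Igfbp1 drops from 10.14 to 4.24 between 75% colon and pure colon, whereas Igfbp7 stays between 10.36 and 10.71.

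Ghr, which passes the growth hormone signal to the cell, fell by a modest amount. Its signals were 8.64, 8.51, 8.15, 8.15 and 7.90, highest in whole mouse and lowest in colon. The slope was −0.73 log2 (SE 0.13, limma adjusted p = 0.0224). Its other probe sets did not pass: they had slopes of −0.19 each (limma adjusted p = 0.682 and 0.407), with signals of 6.95 to 7.58 and of 4.80 to 5.10. The call for Ghr therefore rested on 1 of 3 probe sets, and with the 3 averaged the slope was −0.37 (limma adjusted p = 0.0693).

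Igf1, the ligand, fell in its brightest probe set. It had 8.35 in whole mouse, then 7.89, 7.42 and 7.47 in the mixtures, and 7.18 in colon. The undiluted signals were 2.25-fold apart, and the slope was −1.10 log2 (SE 0.19, limma adjusted p = 0.0235). Most of that difference lay between whole mouse and the 50% mixture, with steps of −0.47 and −0.46 log2 followed by 0.04 and −0.28. A further probe set also fell (−0.80, SE 0.19, limma adjusted p = 0.0468), and the other had a slope of −0.18 (limma adjusted p = 0.549). On the linear intensity scale the fall of the brightest probe set did not pass (limma adjusted p = 0.0681).

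Igf1r, the receptor, gave no measurable course. Its brightest probe set held 5.56 on all 5 arrays, a tie that the authors' RMA summary gave in 66 of the tested probe sets. Its slope of 0.00 carries a 95% interval of −0.23 to 0.23 log2 that comes from other probe sets' variance, since its own is 0. The other Igf1r probe set ran from 5.63 in whole mouse to 5.12 at 50% colon and 5.21 in colon (slope −0.34, 95% interval −0.80 to 0.13, limma adjusted p = 0.278). Poly-A control probe sets on the same arrays read 2.91 to 5.23, and both Igf1r probe sets lay in or near that range. Whether these controls were spiked is not stated, so the range describes low signals and is no measured background.

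The binding proteins held the steepest courses, and 4 of the 7 fell, beside 14.5% of all genes. Igfbp1, an insulin-regulated product of the liver, had the steepest fitted slope of the 10 genes, yet it did not pass. It had 11.68 in whole mouse, 11.37 at 25% colon, 10.86 at 50% and 10.14 at 75%. In colon it had 4.24, inside the range of the poly-A controls. The signal thus stayed high on all 4 arrays that held newborn RNA and dropped by 5.90 log2 in the last step. The undiluted arrays differed by 7.44 log2, a size that is inexact, as is the slope, because the colon signal was that low. The slope was −6.45 log2 (SE 1.98, limma adjusted p = 0.0836). Linear mixing of the undiluted signals predicted 11.27, 10.69 and 9.71 for the mixtures, a curve and not a line on the log2 scale. On the linear intensity scale, where mixing is a straight line, the fall of Igfbp1 passed (limma adjusted p = 0.0101), as did the falls of 10.9% of all genes; none of the 10 genes rose on that scale, against 8.55% of all genes. Without the colon array the slope on the log2 scale was −2.06 (limma adjusted p = 0.0412).

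Values of liver genes were set beside Igfbp1. Of 6 hepatocyte markers 4 were measured and 1, the thyroid hormone carrier Ttr, fell. Slopes ran from −7.13 to −2.72 log2, and the lipoprotein gene Apoa1, the fetuin gene Ahsg and Alb did not pass (limma adjusted p = 0.0948, 0.0662 and 0.136). The albumin gene Alb read 12.94 at 75% colon, against 13.70 with no colon and 6.48 with colon alone. In colon Ttr read 10.08, Apoa1 5.46 and Ahsg 5.77. Their part in the course of Igfbp1 was not tested.

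Igfbp2, an abundant binding protein of fetal tissues and plasma, fell more evenly. Its signals were 11.20, 10.71, 10.30, 9.51 and 7.59. Each array was below the previous one, and the last step of −1.92 log2 was the largest. The slope was −3.37 log2 (SE 0.55, limma adjusted p = 0.0199), and the undiluted signals were 12.2-fold apart. It had 1 probe set, so no other reading of the gene was at hand.

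Igfbp3, the main carrier of IGFs in adult plasma and a product of vessel and connective tissue cells, fell with a different course. It had 9.09 in whole mouse and 9.35 at 25% colon, then 8.72, 7.93 and 7.14. The 25% mixture was thus above both undiluted arrays, as in 10.7% of all genes, and the fall began after it. The slope was −2.13 log2 (SE 0.39, limma adjusted p = 0.0258). On the linear intensity scale the gene did not pass (limma adjusted p = 0.0714). Of 6 endothelial markers 3 fell (Cdh5, Kdr and Tie1) and 3 did not pass (Tek, Emcn and Pecam1), slopes ran from −1.71 to −0.37, and the summed signal went from 10.21 to 9.37 (log2). Their part in the result was not tested.

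Promoters of the binding proteins that fell or had the steepest slope are shown for their differing sequence and their places in the genome. Igfbp1 and Igfbp3 are adjacent protein-coding genes on chromosome 11, and Igfbp2 and Igfbp5 are adjacent on chromosome 1. In each pair the first gene lies on the plus strand and the other on the minus strand, so the genes of a pair point at each other. The windows are the 250 bases before the RefSeq start (GRCm38.p6), 5′ to 3′ on the gene's strand. They lie at chr11:7197537-7197786 (plus) for Igfbp1, chr11:7213924-7214173 (minus) for Igfbp3 and chr1:72824230-72824479 (plus) for Igfbp2. That of Igfbp5 is at chr1:72874866-72875115 (minus) and that of Igfbp4 at chr11:99040994-99041243 (plus). Capitals mark matches, on either strand, to CAAAACA (the core of the insulin response element), TATAAA (the TATA box) or GGGCGG (the GC box); the matches do not overlap.
Igfbp1: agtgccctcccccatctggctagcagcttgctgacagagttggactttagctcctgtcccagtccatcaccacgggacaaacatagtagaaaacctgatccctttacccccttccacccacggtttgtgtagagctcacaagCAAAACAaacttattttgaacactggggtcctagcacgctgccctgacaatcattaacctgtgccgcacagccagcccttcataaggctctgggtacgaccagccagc
Igfbp3: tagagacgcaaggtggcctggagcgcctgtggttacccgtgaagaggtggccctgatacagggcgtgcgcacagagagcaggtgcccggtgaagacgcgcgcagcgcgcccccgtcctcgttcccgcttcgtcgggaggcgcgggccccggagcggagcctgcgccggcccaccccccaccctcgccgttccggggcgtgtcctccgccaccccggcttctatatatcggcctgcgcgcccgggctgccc
Igfbp2: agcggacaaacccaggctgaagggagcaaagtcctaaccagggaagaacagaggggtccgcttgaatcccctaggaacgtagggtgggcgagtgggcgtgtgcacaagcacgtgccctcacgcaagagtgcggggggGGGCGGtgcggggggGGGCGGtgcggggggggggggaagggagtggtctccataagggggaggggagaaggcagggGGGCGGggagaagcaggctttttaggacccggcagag
Igfbp5: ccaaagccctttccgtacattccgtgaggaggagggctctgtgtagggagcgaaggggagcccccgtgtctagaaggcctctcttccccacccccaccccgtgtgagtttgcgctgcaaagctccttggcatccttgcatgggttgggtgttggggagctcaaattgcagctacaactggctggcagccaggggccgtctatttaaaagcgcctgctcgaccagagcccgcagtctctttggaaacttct
Igfbp4: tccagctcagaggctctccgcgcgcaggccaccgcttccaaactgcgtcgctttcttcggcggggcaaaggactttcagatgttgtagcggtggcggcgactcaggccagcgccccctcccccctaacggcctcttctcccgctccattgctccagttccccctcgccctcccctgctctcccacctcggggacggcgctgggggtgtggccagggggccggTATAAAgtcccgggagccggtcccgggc

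Of 12 promoters listed for the 10 genes, only that of Igfbp1 held CAAAACA, from 108 to 102 bases before the start, a motif found in 5.56% of 32851 promoters. The upstream Igfbp2 promoter held 3 GC boxes, which occurred in 4 of the 12 promoters and in 32.7% of all. Igfbp4 had TATAAA from 28 to 23 bases before its start. Counted at any position of the window and on either strand, those letters occurred in 3 of the 12 promoters and in 12.4% of all. The windows of Igfbp3 and Igfbp5 held no exact match to these letters, and variants of the motifs were not searched. Slopes were −6.45 and −2.13 for the pair Igfbp1 and Igfbp3, and −3.37 and −2.29 for Igfbp2 and Igfbp5. These genes were shown because they fell or had the steepest slope, so the shared sign within a pair was set by that choice. Of all 10 genes 8 had a negative slope, and a link between position and slope was not tested.

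Igfbp4, which binds IGFs and is cut by the protease PAPP-A, fell in 5 of its 6 probe sets. The brightest had 12.54, 12.45, 12.12, 11.80 and 11.56. Whole mouse was highest and colon lowest, with no step larger than 0.33 log2. The slope was −1.04 log2 (SE 0.12, limma adjusted p = 0.00896), and the undiluted signals were 1.97-fold apart. The other 4 probe sets that fell had slopes of −0.66, −1.61, −1.36 and −1.51. The dimmest, with signals of 6.78 to 7.26, had a slope of −0.27 (limma adjusted p = 0.437).

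Igfbp5, a binding protein of muscle, bone and fibroblasts, gave opposite signs in its probe sets. The brightest had 9.26, 8.90, 8.41, 7.92 and 6.89, in falling order. It fell with a slope of −2.29 log2 (SE 0.24, limma adjusted p = 0.0076). The other had 8.33, 8.01, 8.23, 8.28 and 8.48, highest in colon, and a slope of 0.23 (95% interval −0.26 to 0.71, limma adjusted p = 0.474). Their mean signals were 8.276 and 8.268, so the choice of the brightest turned on a difference far below the range of either. With both averaged the difference between the undiluted arrays was −1.11 log2 in place of −2.37, and the gene still fell.

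Connective tissue, muscle and fat markers were set beside Igfbp4 and Igfbp5. Of 5 measured fibroblast genes 2 fell (Col1a1 and Col3a1), slopes ran from −3.40 to 0.43, and the summed signal went from 13.97 to 12.93 (log2). Of 6 skeletal muscle genes 2 fell, slopes lay between −6.85 and −3.37, and the summed signal went from 15.67 to 9.17. Of 6 smooth muscle genes 2 rose, slopes ran from −0.33 to 2.77, and the summed signal went from 13.71 to 14.96. All 5 measured adipocyte genes fell, with slopes from −5.17 to −1.32 and summed signals of 14.00 and 12.12. Of 6 chondrocyte genes 4 fell, slopes ran from −4.85 to 0.48 (Sox9), and the summed signal went from 12.73 to 8.87. Their part in these results was not tested.

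Igfbp6, which prefers IGF2 over IGF1, did not pass. Its signals were 8.86, 9.41, 9.13, 9.27 and 8.75. The undiluted arrays were thus the 2 lowest, 0.11 log2 apart, and all 3 mixtures lay above both, which held for 1 of the 10 genes and for 0.799% of all genes. The mixtures exceeded the prediction from linear mixing by 0.57, 0.32 and 0.49 log2. The slope was −0.14 log2 (95% interval −0.96 to 0.68, limma adjusted p = 0.812), an interval that leaves room for a change in either direction.

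Igfbp7, a low-affinity IGF binder of vessel walls and stroma, was the only member whose brightest probe set had a positive slope, although with arrays centred on their medians Igf1r had a slope of 0.08. It had 10.36 in whole mouse, 10.52 in the 25% and 50% mixtures, 10.56 at 75% and 10.71 in colon. Colon was highest and whole mouse lowest, 1.27-fold apart. The slope was 0.30 log2 (SE 0.10), and its 95% interval of 0.03 to 0.56 lay above 0 before adjustment, but the limma adjusted p was 0.111. Its other probe sets had slopes of 0.22 and 0.08 (limma adjusted p = 0.249 and 0.796).

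**Figure D2:**
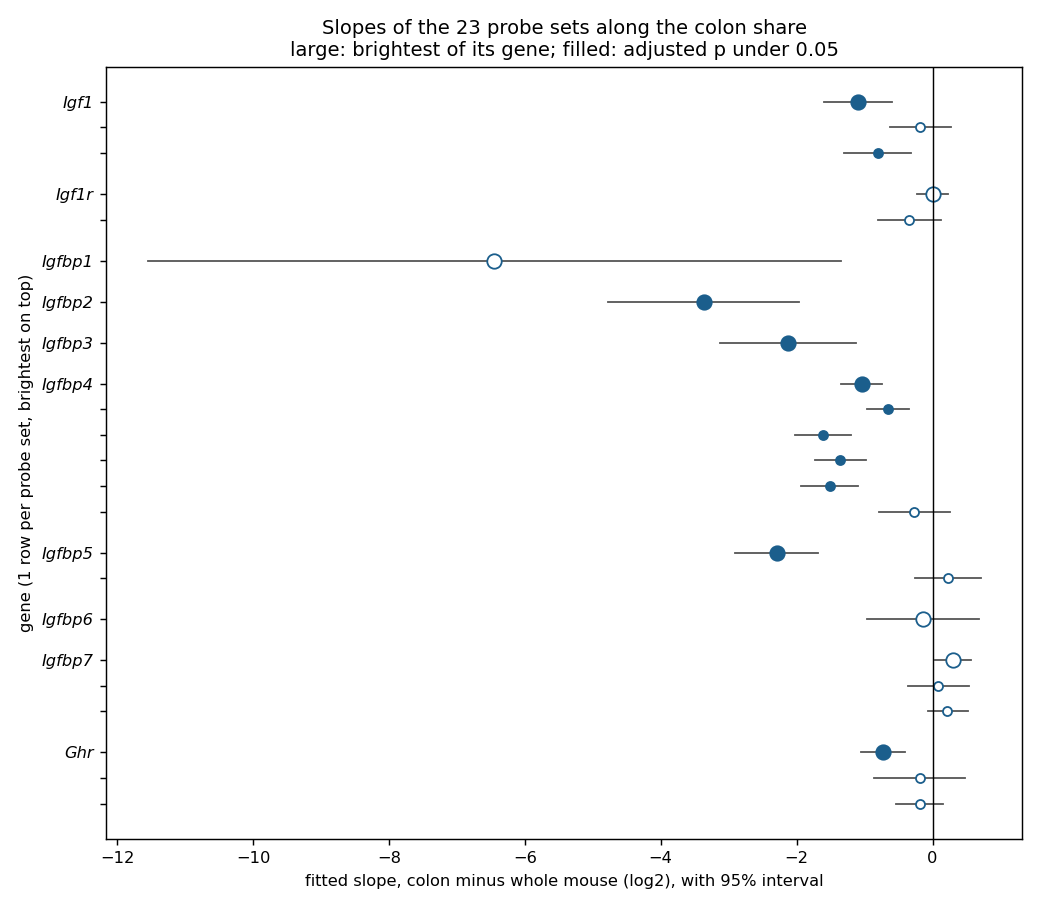
Fitted slope on the colon share (log2, colon minus whole mouse) with its 95% interval for each of the 23 probe sets, grouped by gene. Large symbols are the brightest probe set of a gene, and filled symbols passed at an adjusted p of 0.05: 11 fell and none rose, and the interval of Igfbp1 is the widest, from −11.55 to −1.35.

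Over all 23 probe sets 11 fell and none rose, where 10.9% of all tested probe sets fell and 8.63% rose. Of the 6 genes with several probe sets, 4 had some that fell and some that did not pass (Ghr, Igf1, Igfbp4, Igfbp5), 2 had none that fell (Igf1r, Igfbp7), and no gene fell in all of its probe sets.

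Since the RNAs were mixed in known shares, genes that differed at least 2-fold between the pure RNAs could be read as gauges of the mixture. The share was taken as the distance of a mixture from whole mouse on the linear intensity scale, as a part of the whole distance from whole mouse to colon. Igfbp2 read 31.1%, 50.6% and 75.1% for nominal shares of 25%, 50% and 75%, and Igfbp5 read 27.5%, 55.3% and 75.2%. Both were close to nominal, without a replicate to give the error. Igfbp1 read lower, with 19.6%, 43.7% and 66.1%. Igf1 read higher, with 49.8%, 85.5% and 82.7%. Igfbp3 read −26% for the 25% mixture, whose signal exceeded whole mouse, then 30.3% and 74.6%. The medians over the 2432 genes at least 2-fold apart were 39.7%, 62.8% and 79.1%, above nominal at each share. All 5 of these members were lower in colon. Medians over the 1284 genes at least 2-fold lower in colon were 36%, 62.9% and 80.6%.

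**Figure D3:**
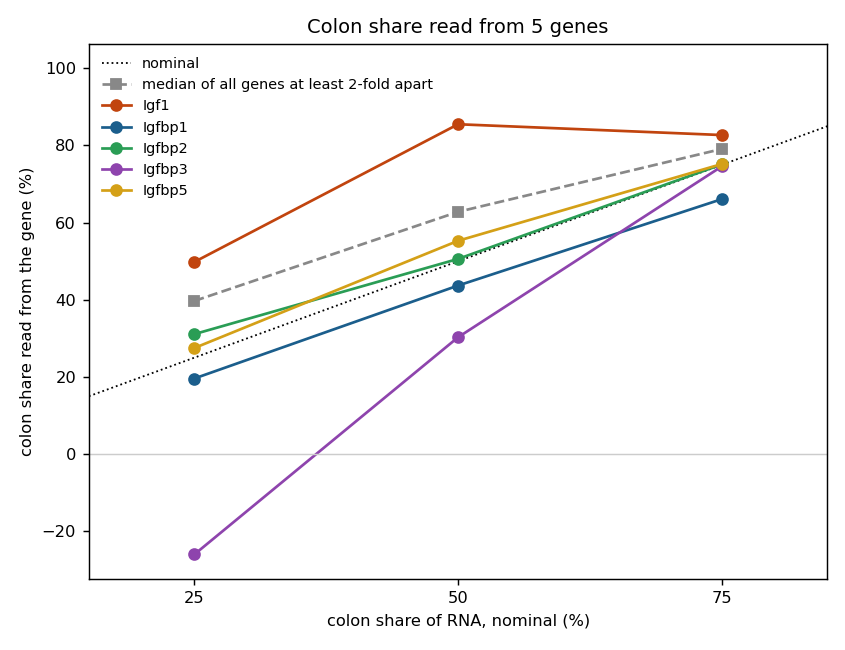
Colon share read from a gene (%) against the nominal colon share (%) for the 5 genes that differed at least 2-fold between the pure RNAs, 1 line per gene. The dotted line is the nominal share and the grey dashed line the median of 2432 genes; Igfbp2 and Igfbp5 lie near the dotted line, Igf1 above it and Igfbp1 below it.

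The genes closest in course were found by the root mean square difference of 5 log2 values, each gene centred on its own mean, over 12392 other genes. Closest to Igfbp1 were Afp, the fetal plasma protein of liver and yolk sac (0.079 log2), Sftpc, a lung surfactant protein (0.081), and Tnnt3, troponin T of fast muscle (0.144). Only 34 genes lay within 0.5 log2 of Igfbp1. Closest to Igfbp2 were the acyl-CoA thioesterase Acot1 (0.061), the surfactant protein Sftpa1 (0.105) and the muscle protein Cmya5 (0.107), among 294 genes within 0.5 log2. Closest to Igf1 were Znrd2 (0.031), Chst14 (0.038) and Nol3 (0.046), but 8563 genes lay within 0.5 log2 of its shallow course. All genes here were read on the same 5 arrays.

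**Figure D4:**
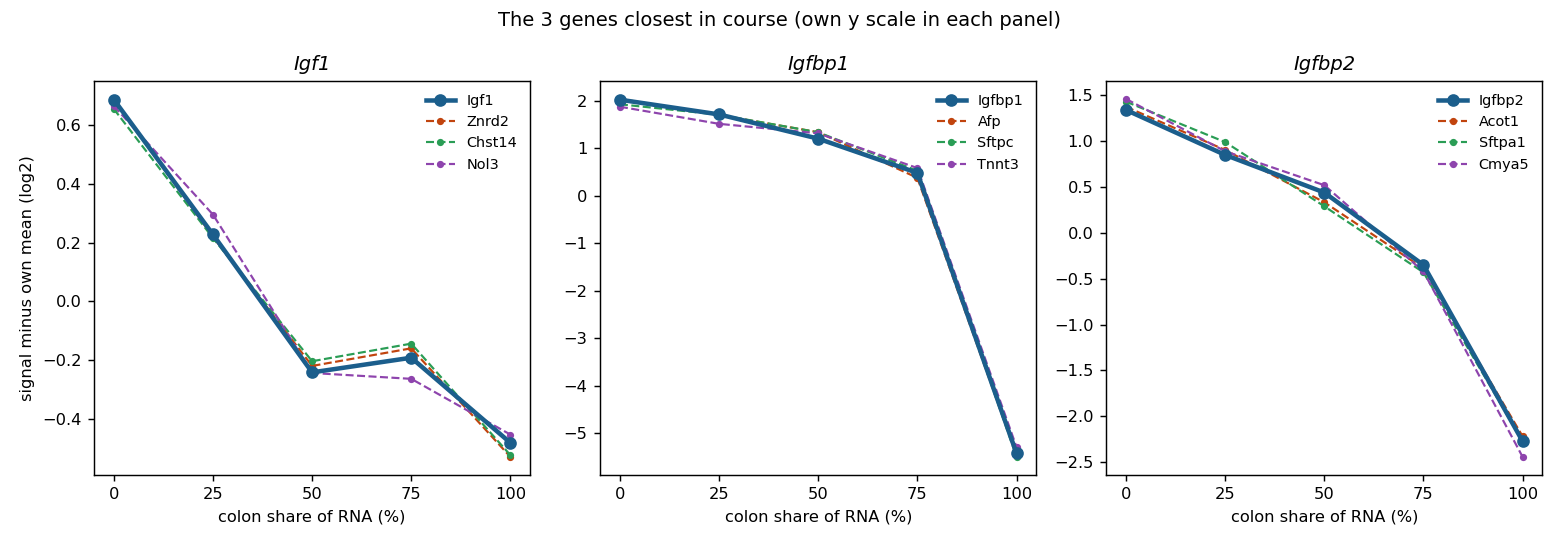
Signal minus the gene's own mean (log2) against the colon share of RNA (%) for Igf1, Igfbp1 and Igfbp2 (blue) and the 3 genes closest to each (dashed). Each panel has its own scale; Igfbp1 and Afp differ by a root mean square of 0.079 log2.

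Other genes of the pathway were taken from lists of 49 names, of which 42 were measured. Of these 10 fell and 1 rose, beside 14.5% and 9.80% of all genes. Among 4 ligands and hormones, growth hormone itself (Gh) fell with a slope of −2.04 log2 (SE 0.20, limma adjusted p = 0.00699) and insulin (Ins2) with a slope of −1.65. In its brightest probe set the fetal ligand Igf2 had 13.37, 12.92, 12.62, 11.69 and 7.80, with its largest step at the end as for Igfbp1. Its slope there was −4.95 (SE 1.28, limma adjusted p = 0.056), and that of its other probe set was −0.56. None of 4 other receptors passed, and Igf2r, which clears IGF2, had a slope of −0.63 (limma adjusted p = 0.14).

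Among 7 genes of the circulating complex, of proteases of the binding proteins and of their inhibitors, 2 fell: the binding protein-like Igfbpl1 (slope −1.34 log2) and the protease Adam12 (−1.13). The inhibitor Stc2 had a slope of 0.81 (limma adjusted p = 0.0817). The protease Htra1 had 10.31 in whole mouse and 9.97 in colon (limma adjusted p = 0.168). Among 16 adaptors and kinases below the receptor 5 fell. They were Grb10, an inhibitor of the receptor (slope −3.55 log2), Irs1, its main docking protein (−2.35), and Akt2, Gab1 and Akt1 (−1.36, −0.81 and −0.70). The transcription factor Foxo3 had 8.63 and 9.51 (slope 0.67, limma adjusted p = 0.114). Irs1 was in strict order with 10.03, 9.42, 8.86, 8.19 and 7.71, and its SE of 0.10 was small against its slope.

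The gene that rose was 1 of 9 in growth hormone signalling, beside 9.80% of all genes that rose. Among these 9 the kinase Jak2, which is bound to the growth hormone receptor, rose with a slope of 0.68 log2 (SE 0.17, limma adjusted p = 0.0488). None of them fell, beside 14.5% of all genes. The phosphatase Ptpn11 had 10.17 in both undiluted RNAs (limma adjusted p = 0.714). Of 2 measured mRNA-binding proteins of Igf2, the oncofetal Igf2bp3 fell with a slope of −1.55 log2, and Igf2bp1 had a slope of −0.24 (limma adjusted p = 0.39). Without the whole mouse, 25%, 50%, 75% or colon array, 5, 7, 9, 6 or 3 of the 42 genes fell. Of all genes, 5.86%, 9.87%, 8.40%, 6.87% or 5.10% fell in the same fits. None of the 42 rose, so the call for Jak2 was lost whichever array was left out. Calls in either direction over all tested probe sets went from 4409 to between 997 and 2998.

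**Figure D5:**
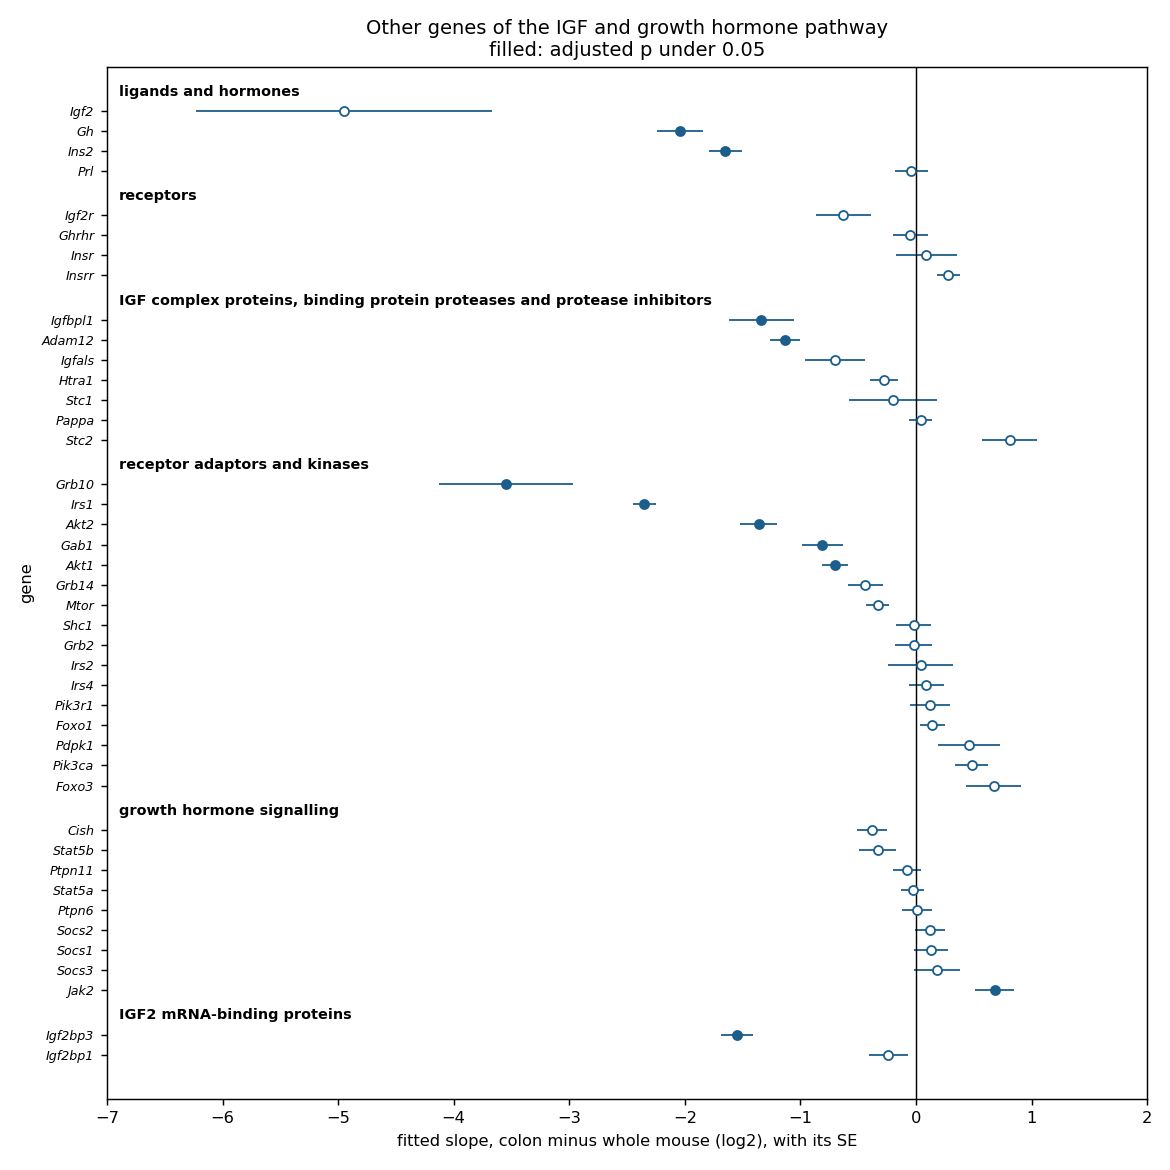
Fitted slope on the colon share (log2, colon minus whole mouse) with its SE for 42 other genes of the pathway, by list. Filled symbols passed at an adjusted p of 0.05: 10 fell, from Grb10 at −3.55 to Akt1 at −0.70, and Jak2 rose with a slope of 0.68.

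Leaving out 1 array changed most of the calls, each such fit having 2 residual degrees of freedom in place of 3. Of the 10 genes 3 fell when whole mouse was left out (5.86% of all genes did) and 3 when colon was (5.10%). With the 25%, 50% or 75% mixture left out, 2, 4 or 2 of the 10 fell (9.87%, 8.40% or 6.87% of all genes). Igfbp5 fell in all 5 of these fits, with slopes of −2.61 to −1.81 log2 and limma adjusted p-values of 0.0321 to 0.0385. Igfbp4 fell in 4 of them and had an adjusted p of 0.0693 by limma without the colon array. Igfbp2 fell only without the colon array, with limma adjusted p-values of 0.0519 to 0.0665 in the other 4 fits. Igfbp3 fell only without the whole mouse array (0.0544 to 0.169 in the others). Igf1 and Ghr fell only without the 50% mixture (0.0576 to 0.109 and 0.0539 to 0.124 in the others). Slopes of these 6 genes were negative in every such fit.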

How the data were processed

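RNA from 5 mixes was measured, 10 ng of total RNA per array, amplified in 2 rounds by T7 transcription, per the labels. The authors deposited log2 signals made with RMA, per the submitters' processing notes, which name no version. The table held 22690 probe sets, of which 64 controls were left out of the tests, and 40.5% had tied values between arrays. The platform annotation gave 1 gene to 20380 probe sets, several to 691 and none to 1555. A straight line of log2 signal on colon share was fitted to every probe set with limma 3.58.1 in R 4.3.3 (lmFit, eBayes, 2-sided, 3 residual degrees of freedom), with no filter on signal. The fit was tested on data simulated as straight lines with random noise. The curve that mixing gives on the log2 scale was not simulated. The number of arrays limits the precision, and pools allow no statement on the spread between mice. Levels of different genes were not ranked, and poly-A control signals were used only to describe low readings.

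The genes and lists were chosen with earlier results of these data known. Named were the 10 genes, from each pathway list the 2 genes past the threshold with the largest slope and the brightest not past it (other names were chosen after their values were seen), and the 3 genes closest to Igf1 and to the 2 steepest members. Promoters came from RefSeq (GRCm38.p6). Alternatives were another centring, a filter on dim probe sets, other variance priors, the linear intensity scale, averaged probe sets and leaving out each array.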

Additional observations from a re-analysis of the deposited data

How the results depend on the processing

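No paired analysis was possible because each share had 1 array. Over the 6 alternatives that kept all 5 arrays, Igfbp2, Igfbp4 and Igfbp5 kept their direction and side of the threshold. Igf1 and Igfbp3 lost their calls on the linear intensity scale (limma adjusted p = 0.0681 and 0.0714), Ghr with its probe sets averaged (0.0693), and Igfbp1 gained its call on the linear scale; the cause was not tested. No slope past the threshold changed sign. Without 1 array each, the count of the 10 genes that fell ran from 2 to 4, that of pathway genes that fell from 3 to 9, and none rose. Over all tested probe sets, calls in either direction ran from 997 to 2998 in those fits, against 4409 with all arrays. The 1 pathway gene that rose became 3 with arrays centred on their medians, 2 with probe sets averaged and 0 on the linear scale. All calls in either direction then numbered 5473 probe sets when centred, 3528 genes when averaged and 3398 probe sets on the linear scale. Signals of Igf1r and of Igfbp1 in colon lay in or near the range of the poly-A controls (up to 5.23); whether those controls were spiked is not given in the sources used, so their range is no measured background.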

Other observations

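Probe sets of other pathway genes also differed in slope. The 4 probe sets of Gh, the pituitary hormone, had slopes of −3.84 to −2.04 log2, the brightest being the least steep. The 2 of the ligand Igf2 had slopes of −4.95 and −0.56, those of Akt2 −1.36 and −0.44, and those of Igfbpl1 −1.34 and −0.30. The 4 of Igf2bp3 ran from −1.69 to −0.33, the 3 of the adaptor Grb10 from −3.55 to −0.31, and the 2 of the kinase Akt1 from −0.70 to 0.19. Signs also differed among the 3 probe sets of the adaptor Gab1 (−0.81 to 0.31) and between the 2 of the protease Adam12 (−1.13 and 0.03). Both probe sets of Jak2 had positive slopes, 0.68 and 0.95. The 3 of Foxo3 had positive slopes as well, from 0.10 to 1.04.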
